A study of Mus musculus with 6 samples.

Results

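Immediate early genes are switched on within minutes of a stimulus from transcription factors that are already present in the cell, and their mRNAs decay quickly. The 10 genes described here are Fos, Fosb, Jun, Junb, Egr1, Ier2, Atf3, Nr4a1, Nr4a3 and Btg2. They were chosen by name, and all 10 were found once each among the 57010 genes of the table. The Fos and Jun proteins pair through leucine zippers to form the transcription factor AP-1, Atf3 belongs to the same basic leucine zipper class, Egr1 is a zinc finger factor and Nr4a1 and Nr4a3 are orphan nuclear receptors. In skeletal muscle, contraction, stretch and adrenergic signals are known inducers of several of these genes.

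RNA sequencing measured expression in 6 libraries of mouse gastrocnemius, a calf muscle in which fast fibres predominate. In the radiotherapy group (n = 3) a subcutaneous tumour on the left flank was irradiated once with 10 Gy, and the contralateral muscle was collected 3 days later. In the control group (n = 3) the tumour was left untreated. Mice of both groups were NSG, an immunodeficient strain without mature lymphocytes, and carried tumours of MDA-MB-231 (a triple-negative breast cancer line of human origin) with a knockdown of Rab27a, a GTPase of vesicle secretion. All tumours, irradiated or not, carried the knockdown, which the mouse table cannot check, and muscle of mice with no tumour or with a tumour lacking the knockdown was not analysed here. Whether replicates are separate mice is not stated in the labels, so p-values reflect only the spread between these samples, which may be technical. Values are TPM, a share of all transcripts corrected for transcript length, so levels may be compared between genes, but sequencing depth is unknown.

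Gene sums over fixed marker lists describe the libraries. The 5 skeletal muscle fibre genes summed to between 47482 and 84502 TPM in the radiotherapy libraries and between 101588 and 107325 TPM in the controls, so the labelled tissue was present in all 6. The 4 neutrophil markers and the 6 leukocyte markers were all highest in control 1, and the 3 adipocyte markers were all highest in radiotherapy 1. Radiotherapy 2 held the lowest value for 52.9% of the 11375 genes tested. In bulk tissue, fewer cells of a type and less RNA per cell cannot be told apart.

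Promoter sequences are shown as a description. Whether their motifs relate to how the genes varied between libraries was not tested. RefSeq windows of 300 bases on build GRCm38.p6, from 250 bases before to 50 after the start, were taken by symbol for 8 of the 10 genes. No window is reported here for Egr1 and Ier2. A well known response motif of such genes is the cyclic AMP response element, TGACGTCA, bound by CREB and ATF factors, and its core is TGACG. Windows of 5 genes that the results turn on are printed 5′ to 3′ along the gene, with capitals marking the core TGACG or its reverse complement. They lie at chr12:85473640-85473939 (plus strand), chr7:19309996-19310295 (minus strand), chr1:191183284-191183583 (minus strand), chr15:101266596-101266895 (plus strand) and chr4:48045055-48045354 (plus strand).
Fos: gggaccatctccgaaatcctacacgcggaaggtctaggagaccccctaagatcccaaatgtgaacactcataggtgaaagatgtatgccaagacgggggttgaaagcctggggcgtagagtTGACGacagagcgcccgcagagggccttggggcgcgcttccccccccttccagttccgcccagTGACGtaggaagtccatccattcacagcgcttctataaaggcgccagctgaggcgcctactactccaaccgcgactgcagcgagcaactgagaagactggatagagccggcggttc
Fosb: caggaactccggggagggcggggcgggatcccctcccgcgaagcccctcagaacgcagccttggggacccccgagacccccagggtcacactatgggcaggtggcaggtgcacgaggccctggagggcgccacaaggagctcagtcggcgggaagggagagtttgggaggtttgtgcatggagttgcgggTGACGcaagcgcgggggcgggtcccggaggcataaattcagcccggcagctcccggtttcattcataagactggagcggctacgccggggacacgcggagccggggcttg
Atf3: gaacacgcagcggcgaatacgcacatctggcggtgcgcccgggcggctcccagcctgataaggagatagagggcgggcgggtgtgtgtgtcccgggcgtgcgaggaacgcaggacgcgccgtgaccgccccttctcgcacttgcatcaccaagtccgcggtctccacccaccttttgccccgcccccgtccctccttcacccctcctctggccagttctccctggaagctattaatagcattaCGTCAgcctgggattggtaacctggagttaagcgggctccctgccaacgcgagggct
Nr4a1: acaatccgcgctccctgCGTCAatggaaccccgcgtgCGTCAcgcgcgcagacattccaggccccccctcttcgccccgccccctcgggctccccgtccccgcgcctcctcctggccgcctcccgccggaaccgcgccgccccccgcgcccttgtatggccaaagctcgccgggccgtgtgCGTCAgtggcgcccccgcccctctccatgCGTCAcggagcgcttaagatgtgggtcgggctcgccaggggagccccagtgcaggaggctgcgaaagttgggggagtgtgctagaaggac
Nr4a3: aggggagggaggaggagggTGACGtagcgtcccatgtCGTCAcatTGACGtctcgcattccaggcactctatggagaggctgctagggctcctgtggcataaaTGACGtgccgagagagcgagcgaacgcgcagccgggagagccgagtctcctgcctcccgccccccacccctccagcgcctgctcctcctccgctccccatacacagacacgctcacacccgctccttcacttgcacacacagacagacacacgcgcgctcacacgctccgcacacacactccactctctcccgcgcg

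The core TGACG, searched on both strands, was found in 7 of the 8 windows, against 20.8% of all 32851 RefSeq windows of the same length. Counting positions back from the start, the Fos window held it at 129 and 66 bases, Fosb at 60, Junb at 106 and Atf3 at 7 bases upstream. Nr4a1 held 4 copies, at 233, 213, 69 and 40 bases upstream, and Nr4a3 also held 4, at 231, 213, 205 and 147. The full element TGACGTCA, which contains the core on each strand, was found in Btg2 alone of the 8, at 166 bases upstream, against 1.79% of all windows. The Jun window held no core. The EGR site GCGGGGGCG, the binding motif of Egr1 and its relatives, was found in Fosb and Nr4a1, at 50 and 60 bases upstream, against 2.91% of all windows. The letters TATAAA of the TATA box were found in Fos, 33 bases upstream, and in Junb, where they begin at the annotated start and not upstream of it, against 13.6% of all windows. The AP-1 site TGAGTCA, the NBRE motif AAAGGTCA of the Nr4a receptors, the EGR site GCGTGGGCG and the CArG box bound by serum response factor were in none of the 8 windows, against 5.20%, 1.51%, 0.612% and 1.63% of all windows. At shares this low, absence from all 8 windows does not set these genes apart. Only exact matches to each motif were counted, so variants of a motif were not searched. Sequence outside the windows was not searched either, and Egr1 and Ier2 were not among the 8. Absence here therefore does not show that a gene lacks the motif. A match describes letters in the window, and matches were not linked to any binding measurement.

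No immediate early gene differed between radiotherapy and control muscles in the test. The comparison asked whether muscle distant from an irradiated tumour differs in its early response genes. The 10 genes were all detected at 1 TPM or more in at least 3 libraries, and all were tested with limma on log2(TPM + 1), with Benjamini-Hochberg adjustment over 11375 genes. Of the 10, 0 passed an adjusted p of 0.05 in either direction, and the same fit called 0% of all genes. At an unadjusted p under 0.05 the limma fit held 0 of the 10 and 3.82% of all genes. For each of the 10 the radiotherapy and control values overlapped, where 9.24% of all genes did not overlap. The log2 fold change, radiotherapy minus control, was negative for 8 of the 10 with a median of −0.30, while 67.9% of all tested genes were negative with a median of −0.11. The limma adjusted p of the 10 ran from 0.977 to 0.996.

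**Figure D1:**
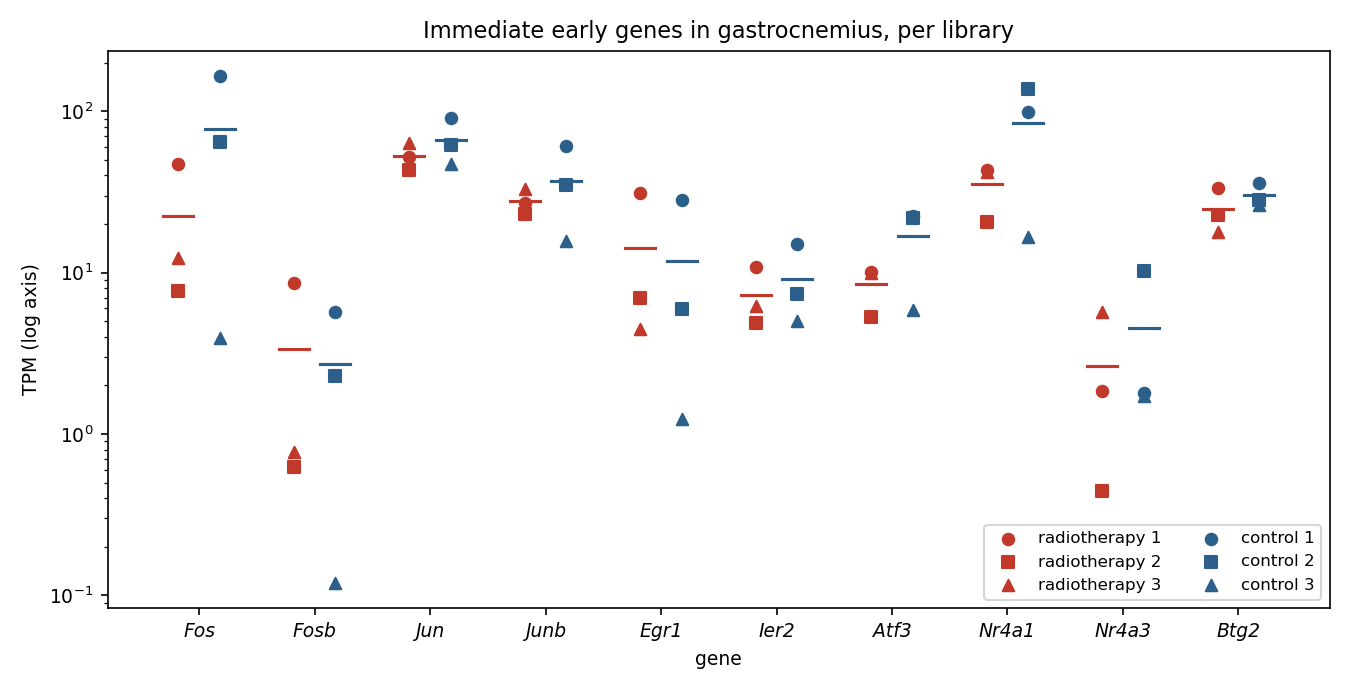
TPM on a log axis for the 10 immediate early genes in each library, with radiotherapy in red left of control in blue; marker shapes give the replicate number and bars the group mean (n = 3 each). Values of both groups overlap for every gene, and the control values of Fos, Fosb and Egr1 span more than a factor of 20.

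Fosb and Fos had the widest ratios of highest to lowest library among the 10 genes. Fos, the founding partner of AP-1, had 46.9, 7.70 and 12.3 TPM in radiotherapy 1, 2 and 3, against 165, 64.5 and 3.92 TPM in control 1, 2 and 3. The highest and the lowest of the 6 values were thus both controls, 42.1-fold apart. The means were 22.3 ± 21.4 TPM in radiotherapy and 77.8 ± 81.4 TPM in control (SD, n = 3 each), with a log2 fold change of −1.09 (SE 1.14, 95% interval −3.67 to 1.49, limma adjusted p = 0.977). Fosb, a close relative of Fos, had 8.62, 0.62 and 0.77 TPM in radiotherapy 1, 2 and 3, against 5.67, 2.30 and 0.12 TPM in control 1, 2 and 3. Its highest library was radiotherapy 1, and only 3 of the 6 values reached 1 TPM. The Fosb log2 fold change was 0.05 (SE 0.77, 95% interval −1.68 to 1.79), and it changed sign without radiotherapy 1 (−0.78) and without control 3 (−0.63).

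The Jun genes were steadier than Fos and Fosb. Jun, the AP-1 partner that can also pair with itself, had 52.3, 43.1 and 63.2 TPM in radiotherapy 1, 2 and 3, against 90.3, 61.4 and 46.8 TPM in control 1, 2 and 3, with a log2 fold change of −0.28 (SE 0.29). Its 6 values stayed within 2.10-fold of each other. Junb, a weaker activator than Jun that can oppose it, had 26.8, 23.1 and 32.9 TPM in the radiotherapy libraries, against 60.8, 34.7 and 15.8 TPM in the controls (log2 fold change −0.23, SE 0.43). All 3 radiotherapy values of Junb lay inside the control range, and the sign turned to 0.21 without control 1. In the GENCODE M21 annotation Jun overlaps the antisense gene Junos by 689 bases and Junb overlaps Prdx2 on the opposite strand by 351 bases. Junos stood at 1.74 to 2.32 TPM in radiotherapy and 1.45 to 4.39 TPM in control, and Prdx2, a peroxiredoxin, at 95.9 to 134 TPM in radiotherapy and 109 to 148 TPM in control. Strand handling is not given in the sources used here, so reads in these overlaps cannot be assigned with certainty.

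Egr1, a zinc finger factor induced by growth factors and mechanical load, had 31.2, 6.93 and 4.50 TPM in radiotherapy 1, 2 and 3, against 28.1, 5.96 and 1.24 TPM in control 1, 2 and 3. One library in each group was high and the others low, so the groups overlapped almost fully. The log2 fold change was 0.54 (SE 0.90, 95% interval −1.5 to 2.59). It was −0.22 without radiotherapy 1, −0.35 without control 3 and 1.5 without control 1. Ier2, a nuclear protein gene of the early response, had 10.8, 4.90 and 6.2 TPM in the radiotherapy libraries, against 15.0, 7.40 and 5.02 TPM in the controls (log2 fold change −0.23, SE 0.40; 0.16 without control 1). For Egr1 and Ier2 alike, radiotherapy 1 and control 1 were the highest pair of the 6.

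Atf3, a stress-induced factor that mostly represses, and the nuclear receptor Nr4a1 followed each other closely. Atf3 had 10.1, 5.31 and 10.0 TPM in radiotherapy 1, 2 and 3, against 22.6, 21.9 and 5.89 TPM in control 1, 2 and 3. Nr4a1, which regulates glucose and lipid metabolism genes in muscle, had 43.0, 20.5 and 42.2 TPM in the radiotherapy libraries, against 99.3, 136 and 16.5 TPM in the controls. For both genes controls 1 and 2 lay above all 3 radiotherapy libraries and control 3 lay below radiotherapy 1 and 3. The Atf3 log2 fold change was −0.76 (SE 0.48, 95% interval −1.84 to 0.32, limma adjusted p = 0.977) and that of Nr4a1 was −0.85 (SE 0.69, 95% interval −2.40 to 0.70). Nr4a3, a receptor of the same family, had 1.84, 0.44 and 5.68 TPM in the radiotherapy libraries, against 1.79, 10.2 and 1.71 TPM in the controls. Its highest libraries were control 2 and radiotherapy 3, an order seen in none of the other 9 genes. The Nr4a3 log2 fold change was −0.54 (SE 0.65), and 0.13 without control 2. Btg2, an antiproliferative gene also known as a p53 target, had 33.7, 22.7 and 17.8 TPM in the radiotherapy libraries, against 36.0, 28.3 and 26.3 TPM in the controls (log2 fold change −0.31, SE 0.29). Radiotherapy 2 and 3 lay below all controls for Btg2, while radiotherapy 1 was the second highest of the 6.

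**Figure D2:**
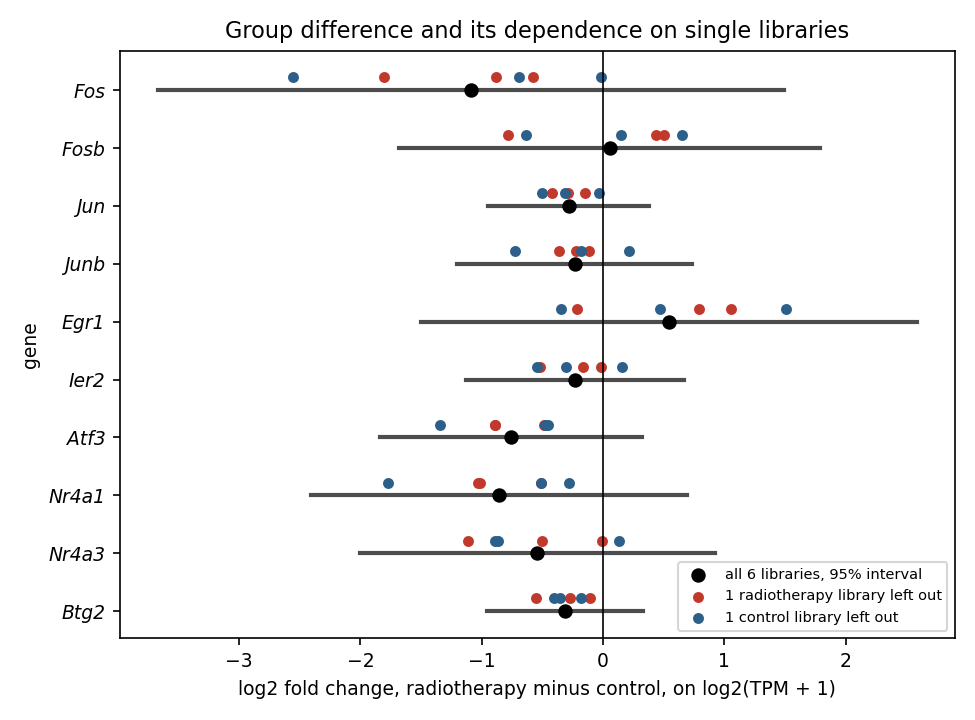
Log2 fold change of each gene, radiotherapy minus control on log2(TPM + 1), as black points with 95% intervals, and the value with 1 library left out as red (radiotherapy) or blue (control) points. All 10 intervals include 0, and 5 genes (Fosb, Junb, Egr1, Ier2, Nr4a3) change sign when some single library is left out.

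Single libraries, most of all controls, set the size of the Fos, Atf3 and Nr4a1 differences. Without control 3 all 10 genes were negative with a median of −0.68, against a median of −0.11 over all tested genes. Control 3 held the lowest value for 5 of the 10, so leaving it out raises their control means. The log2 fold change without control 3 was −2.56 for Fos, −1.34 for Atf3 and −1.77 for Nr4a1. These were the 3 of the 10 with an unadjusted limma p under 0.05 in that fit, where 415 of all genes had one, and none passed the adjustment (limma adjusted p = 0.923, 0.923 and 0.602). Without control 1 the median of the 10 was −0.03, with 6 of them negative, and the log2 fold change was −0.02 for Fos, −0.45 for Atf3 and −0.51 for Nr4a1. Without control 2 it was −0.69 for Fos, −0.48 for Atf3 and −0.28 for Nr4a1, and without radiotherapy 2 it was −0.58, −0.49 and −0.51 for the same 3 genes. Without radiotherapy 1 the Fos value was −1.81. The Jun value was −0.04 without control 1, −0.15 without radiotherapy 2 and −0.50 without control 3. For Btg2, leaving out radiotherapy 1 gave −0.55, radiotherapy 3 gave −0.11 and control 1 gave −0.18.

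The spread between libraries of the same group exceeded that of most genes. The SD within groups, on the log2(TPM + 1) scale, had a median of 0.96 over the 10 genes, against 0.31 over all genes tested. It lay above the 90th percentile of tested genes for 8 of the 10, the exceptions being Jun (68.0th) and Btg2 (61.1st). Fos stood at 2.07, Egr1 at 1.62 and Fosb at 1.37. Within radiotherapy the highest value was a median of 2.15 times the lowest over the 10 genes, against 1.71 times over all tested genes. Within the controls it was 4.90 times over the 10 genes, against 1.48 times over all tested genes. The span was wider in control than in radiotherapy for 8 of the 10 genes, and for 38.0% of all tested genes. The exceptions were Nr4a3 (12.9-fold in radiotherapy and 5.94-fold in control) and Btg2 (1.89-fold in radiotherapy and 1.37-fold in control).

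**Figure D3:**
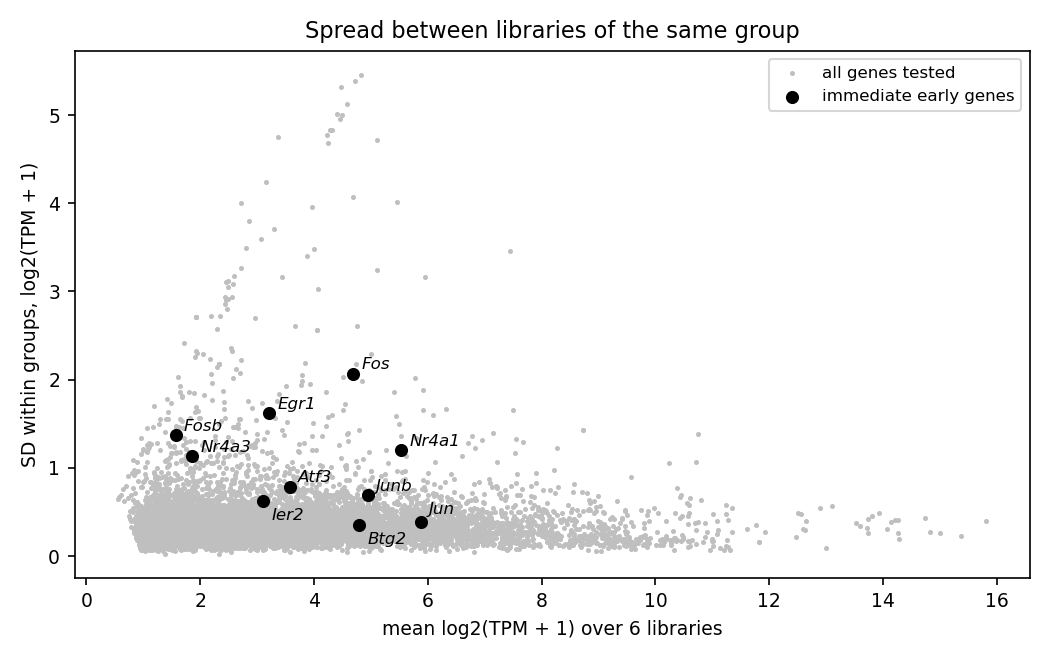
SD within groups against the mean of log2(TPM + 1) over 6 libraries for all 11375 genes tested (grey) and the 10 immediate early genes (black). Fos, Egr1, Fosb, Nr4a1 and Nr4a3 all have an SD above 1, and Jun and Btg2 lie among the bulk of genes.

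The variation was largely shared. The summed level of the 10 genes was 265, 135 and 196 TPM in radiotherapy 1, 2 and 3, against 525, 373 and 123 TPM in control 1, 2 and 3. The maximum was in control 1 for 6 of the 10, and for 17.2% of all tested genes, and the minimum was in control 3 for 5 of the 10, against 14.4%. Fos made up 31.5% of the sum in control 1 and 3.18% in control 3. Across the 6 libraries, which the genes share, Pearson's r between log2(TPM + 1) of 2 members was above 0 for 43 of 45 pairs, with a median of 0.67. The share of positive pairs among all tested genes was not computed, so this count is not shown to be particular to the 10. The closest pairs were Atf3 with Nr4a1 (0.98), Fosb with Egr1 (0.94) and Jun with Junb (0.93). The pairs below 0 were Nr4a3 with Btg2 (−0.17) and Nr4a3 with Egr1 (−0.18). Fosb and Egr1 were highest in radiotherapy 1, whereas Nr4a1 and Nr4a3 were highest in control 2, and the other 6 genes were highest in control 1.

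**Figure D4:**
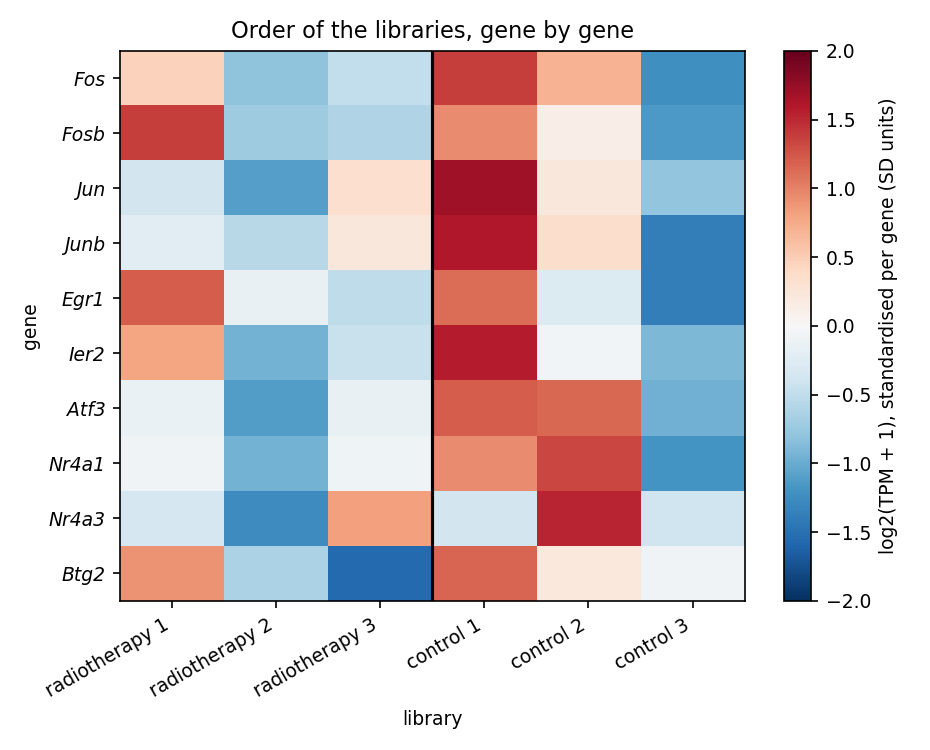
Log2(TPM + 1) of each gene standardised over the 6 libraries (SD units, red high, blue low), with radiotherapy libraries left of the line and controls right of it. Control 1 is high for all genes except Nr4a3, control 3 is low for most, and radiotherapy 1 is high for Fosb, Egr1, Ier2 and Btg2.

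Cell type markers moved with some of these libraries, and their part in the levels was not tested. In control 1, the library with the highest sum of the 10 genes, the 4 neutrophil markers summed to 1595 TPM, against 147 to 663 TPM in the radiotherapy libraries and 271 to 277 TPM in the other controls. The 6 leukocyte markers summed to 248 TPM in control 1, against 20.9 to 130 TPM in radiotherapy and 23.7 to 31.9 TPM in the other controls, with the pan-leukocyte gene Ptprc at 4.41 TPM in control 1 and at most 0.80 TPM elsewhere. Control 2 had the next highest sum of the 10 genes with leukocyte markers at 31.9 TPM, and radiotherapy 3 had leukocyte markers at 130 TPM with the fourth highest sum. The 3 adipocyte markers summed to 143 TPM in radiotherapy 1, where Fosb and Egr1 were highest, against 20.7 and 31.1 TPM in the other radiotherapy libraries and 4.07 to 45.7 TPM in the controls. Endothelial markers summed to between 73.0 and 106 TPM in radiotherapy and between 67.6 and 97.5 TPM in control, with 3 of the 5 lowest in control 3. Fibroblast markers ran from 82.6 to 129 TPM in radiotherapy and from 78.9 to 167 TPM in control, with all 4 lowest in control 3. Smooth muscle and pericyte markers ran from 137 to 167 TPM in radiotherapy and from 90.1 to 155 TPM in control, with 3 of the 4 lowest in control 3. The 3 satellite cell markers summed to between 1.46 and 3.54 TPM in radiotherapy and between 1.06 and 3.57 TPM in control, with all 3 lowest in control 3 and Pax7 at 0.25 TPM or less in every library. Schwann cell markers summed to between 20.1 and 434 TPM in radiotherapy and between 19.7 and 77.7 TPM in control. Of the marker lists, the erythroid one had the median log2 fold change largest in size (−1.81). Its sums were 930 to 1618 TPM in radiotherapy and 3352 to 7203 TPM in control. All 5 erythroid markers lay lower in every radiotherapy library than in every control, and so did all 5 skeletal muscle fibre markers. Among all tested genes 9.24% did not overlap, in either direction. The erythroid log2 fold changes ran from −2.18 to −1.54, and none passed the adjustment (limma adjusted p from 0.648 to 0.977).

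**Figure D5:**
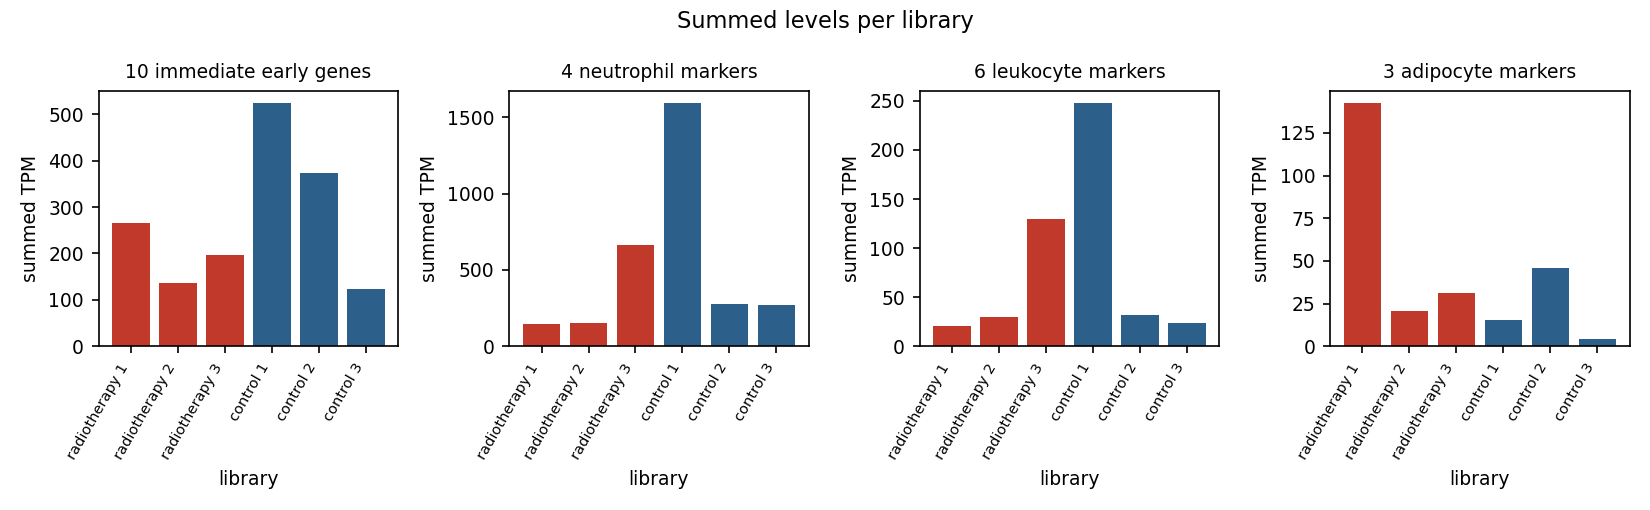
Summed TPM per library of the 10 immediate early genes and of 3 marker lists, radiotherapy in red and control in blue; bars start at 0 and are single libraries. The early genes and the neutrophil and leukocyte markers are highest in control 1, and the adipocyte markers in radiotherapy 1.

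Levels ranged over more than a factor of 10 among the genes. On the mean of the 6 libraries, Nr4a1 (59.7 ± 47.8 TPM), Jun (59.5 ± 17.0), Fos (50.1 ± 61.3), Junb (32.4 ± 15.5) and Btg2 (27.5 ± 6.78) led, as mean ± SD with n = 6. Next came Egr1 (13.0 ± 13.1 TPM), Atf3 (12.6 ± 7.70), Ier2 (8.21 ± 3.96), Nr4a3 (3.60 ± 3.67) and Fosb (3.02 ± 3.41). Neighbours in this order differed by less than the larger of their SDs, except Btg2 from Egr1 and Ier2 from Nr4a3. The order moved between libraries. Fos was 1.83 and 1.05 times Jun in control 1 and 2 but 0.0838 times Jun in control 3, and 0.897, 0.179 and 0.195 times Jun in radiotherapy 1, 2 and 3.

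Ratios between members remove variation that 2 genes share, and they were examined after the values were seen. Of the 45 ratios, 2 did not overlap between groups, 4.44% of them. Among single genes 9.24% did not overlap, but the share among ratios of other genes was not computed. The 45 ratios also reuse the same 10 genes. Fosb relative to Fos was 0.184, 0.0805 and 0.0626 in radiotherapy 1, 2 and 3, against 0.0343, 0.0357 and 0.0306 in control 1, 2 and 3. The 3 control ratios lay close together although the control Fos levels were 42.1-fold apart. Egr1 relative to Fos was 0.666, 0.9 and 0.366 in the radiotherapy libraries, against 0.170, 0.0925 and 0.316 in the controls. The mean log2 difference was 1.54 for Fosb over Fos and 1.82 for Egr1 over Fos, radiotherapy minus control. Both ratios share Fos as denominator, Fosb in control 3 was only 0.12 TPM, and neither ratio was tested.

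Relatives of the 10 genes gave no call either. Of 11 family relatives, 6 were expressed enough to be tested, and 0 passed limma after adjustment, with 5 negative and a median log2 fold change of −0.34. Ier5, a relative of Ier2, was the relative with the smallest p, at 6.60, 5.72 and 6.59 TPM in radiotherapy 1, 2 and 3, against 12.0, 10.1 and 11.1 TPM in control 1, 2 and 3. Its groups did not overlap, and its spread was small (SD within groups 0.11 on the log2 scale), yet its log2 fold change of −0.73 (SE 0.22) did not pass (limma adjusted p = 0.977). Jund, the Jun gene known for steady expression, gave −0.20, Fosl2 −0.48, Ier3 −0.65, Btg1 −0.11 and Ier5l 0.05. Fosl1, Egr2, Egr3, Egr4 and Nr4a2 reached 1 TPM in at most 1 library each.

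Other early response genes numbered 31, of which 28 were tested and 0 passed, with 20 negative and a median of −0.31. Those of smallest p were Ccn1 (−0.78, SE 0.27), a matricellular target of YAP and serum response factor, Klf10 (−0.60, SE 0.24), Trib1 (−0.57), Maff (−0.85), Klf6 (−0.59) and Gadd45g (−0.82), all log2 fold changes. Groups did not overlap for 3 of the 28, a share near the 9.24% of all tested genes, and negative values made up 67.9% of all tested genes. Ccn1 had 33.0, 19.2 and 27.2 TPM in radiotherapy 1, 2 and 3, against 52.7, 42.9 and 40.4 TPM in control 1, 2 and 3, so control 3 was not low for it as it was for Fos. Upstream regulators, all 23 of them tested, also gave 0 calls, with 21 negative, a median of −0.20 and 5 without overlap, beside the 67.9% negative and 9.24% without overlap among all tested genes. Radiotherapy 2, the lowest library for 52.9% of all tested genes, was the lowest for 16 of the 23. Rps6ka1, a ribosomal S6 kinase, gave −0.72 (SE 0.25), and Srf, the serum response factor that binds CArG boxes, gave −0.95 (SE 0.35, limma adjusted p = 0.977). Srf had 11.1, 6.53 and 18.2 TPM in radiotherapy 1, 2 and 3, against 25.6, 18.9 and 22.8 TPM in control 1, 2 and 3. All 3 radiotherapy values of Srf lay below all controls, the nearest by less than 1 TPM. Rps6ka5 gave −0.32, Map2k2 −0.44 and Elk3, an ETS factor of the serum response, 0.48.

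The genes whose levels across libraries were most like those of the 10 were Colec12, Gng10, Ccnd1, Lrrc38, Cd59b, Phf6, Epb41l1 and Clec10a. Likeness was Pearson's r over the 6 libraries with the mean standardised level of the 10, and it ran from 0.97 to 0.99 for these 8, taken as the highest of 10155 genes, so high values are fixed by the choice, and 82 of those genes had an r above 0.9. Gng10 encodes a G protein subunit, Cd59b a complement inhibitor and Clec10a a lectin of macrophages. Most of the 8 were low, with Ccnd1, the cyclin D1 gene, at 1.42, 0.66 and 1.18 TPM in radiotherapy 1, 2 and 3, against 2.08, 1.43 and 0.66 TPM in control 1, 2 and 3. Among the 10 themselves, each of which is part of that mean, Fos was nearest to it (0.99) and Nr4a3 farthest (0.37).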

How the data were processed

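The authors deposited 1 table of TPM values, 57010 genes by 6 samples. Per the submitters' processing notes, HISAT2, StringTie and RSEM were used with build mm9; their versions and roles, the annotation and the strand handling are not stated there. Libraries were made with a TruSeq RNA kit from total RNA, per the labels' protocols. Each column sums to 1000000 within 1, so depth, counting intervals and detection limits are unknown, and each value depends on the share that other transcripts take.

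Samples were grouped by the labels. The 11375 genes that reached 1 TPM in 3 or more samples were tested, as log2(TPM + 1), with limma 3.58.1 in R 4.3.3 (two-sided, mean-variance trend, group as the only term), Benjamini-Hochberg adjustment and a threshold of 0.05. The pseudocount of 1 understates changes of low genes. The fit was tested on simulated data. The members, gene lists and tests were chosen with earlier results of these data known. Named genes were all members and family relatives, up to 6 of smallest p from each other list (1 gene so chosen is not reported here), and the 8 of highest r with the members' mean. Alternatives were other pseudocounts, filters and scalings, limma without the trend or robust, the replicate number as a block, and each sample left out. Libraries were compared pairwise for duplicates, and the share of equal nonzero values was 3.35% or less. Promoter windows are RefSeq's on GRCm38.p6 and share no coordinates with mm9, the build that the submitters' notes name for the values. Figures used matplotlib 3.10.9 in Python 3.11.15.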

Additional observations from a re-analysis of the deposited data

How the results depend on the processing

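In each of the 16 alternatives 0 of the 10 genes passed limma after adjustment. Over all genes 0 were called under the 10 alternatives that kept all libraries, and between 0 and 1 with a library left out: Gm24497 without radiotherapy 1 and Gm55635 without control 1. With a library left out the log2 fold change ranged from −0.78 to 0.65 for Fosb, −0.35 to 1.5 for Egr1, −0.73 to 0.21 for Junb, −0.55 to 0.16 for Ier2 and −1.12 to 0.13 for Nr4a3, so these 5 changed sign. It ranged from −2.56 to −0.02 for Fos, −1.77 to −0.28 for Nr4a1, −1.34 to −0.45 for Atf3, −0.50 to −0.04 for Jun and −0.55 to −0.11 for Btg2. Under the other 10 alternatives no tested member changed sign. The filter of 5 TPM removed Fosb and Nr4a3. Median-of-ratios scaling moved the median of all genes to −0.04 and that of the members to −0.20. The replicate numbers pair no samples by the labels, and deviations of same-numbered samples correlated at −0.06, 0.02 and −0.11. With the replicate block 0 members and 0 genes were called, and 403 genes had an unadjusted p under 0.05, against 435 without it. The block lowered the SE of Egr1 from 0.90 to 0.31, Fosb from 0.77 to 0.37 and Fos from 1.14 to 0.76. It also lowered Ier2 from 0.40 to 0.27 and Btg2 from 0.29 to 0.23. Nr4a3 rose from 0.65 to 0.74, and Jun, Junb, Atf3 and Nr4a1 hardly changed. Depth is unknown, which limits Fosb and Nr4a3 most, since they fell under 1 TPM in some libraries.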

Other observations

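Early response genes did not all share the order of the 10, and the genes named here were singled out after their values were seen. Dusp1, the phosphatase that switches off MAP kinases, followed Fos, with 51.2, 25.0 and 39.5 TPM in radiotherapy 1, 2 and 3, against 131, 103 and 11.7 TPM in control 1, 2 and 3. Of the 31 other early response genes 11 were lowest in control 3, against 14.4% of all tested genes, and 11 in radiotherapy 1, against 9.96%. In the same list 13 were highest in control 2, against 14.6% of all tested genes, and 6 in control 3, against 25.1%. These counts run over all 31 genes, of which 28 were tested, while the shares cover tested genes only. The untested Dusp5, Arc and Npas4 were all lowest in control 3, and Arc and Npas4 were highest in control 2. Cebpd, a factor of the acute phase and glucocorticoid responses, had 13.6, 28.9 and 14.6 TPM in the radiotherapy libraries, against 17.4, 29.9 and 105 TPM in the controls. Gadd45a, a stress gene that is also induced in muscle by denervation and fasting, had 174, 233 and 303 TPM in the radiotherapy libraries, against 110, 211 and 628 TPM in the controls. Rgs2, a regulator of G protein signalling, had 5.11, 9.67 and 4.27 TPM in the radiotherapy libraries, against 4.94, 4.0 and 23.6 TPM in the controls. Control 3 was thus the highest library for these 3 genes and the lowest for Fos, Fosb, Junb, Egr1 and Nr4a1.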
